A study of Mus musculus with 6 samples.

Results

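The background of an RNA immunoprecipitation was described by comparing the RNA recovered with a control antibody (control IgG RIP, 2 libraries) with the RNA of the heart lysate itself (Input, 2 libraries). Genes entered the comparison when they reached at least 0.5 CPM (reads scaled to a common library total) in 2 or more of the 6 libraries of the study. This held for 13130 of the 24421 gene symbols, and 13129 were tested once Rn45s, the ribosomal RNA precursor, had been set aside. The study sought the mRNAs bound by Cnot3 in mouse hearts and also held 2 libraries of an immunoprecipitation with an antibody against Cnot3 (Cnot3 RIP). All 6 libraries came from whole hearts of C57BL6/J mice aged 4 weeks, with no genetic change or treatment named in the labels, and RNA was extracted with TRIZOL. The labels do not say whether the libraries of a group came from separate animals, whether hearts were pooled, or which beads and washes were used. The p-values below therefore measure only how far these libraries lie apart, and that spread may be technical.

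In an RNA immunoprecipitation, an antibody held on beads pulls a protein and the RNA attached to it out of a lysate. A control IgG has no intended target, so the RNA that it recovers is what sticks to antibody, beads or tube, or is carried along in large particles. Enrichment by a specific antibody is usually judged against such a control, against Input, or against both.

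Rn45s took 59.8% ± 0.609 (SD, n = 2) of the reads of control IgG RIP and 78.8% ± 0.647 of those of Input. Without it the 4 libraries held between 3407528 reads in Input replicate 1 and 7172223 in control IgG RIP replicate 1. Across genes, control IgG RIP replicate 2 was nearer to Cnot3 RIP replicate 1 (SD of the log2 difference 0.47) than to control IgG RIP replicate 1 (SD 0.52). Levels are given as scaled CPM, which is CPM computed over the reads other than Rn45s after a further TMM scaling (trimmed mean of M values), and ratios as log2 of control IgG RIP over Input with 0.5 scaled CPM added to each level. A ratio of 0 means the change of the typical gene, because this scaling set the median over all genes to -0.00. On the deposited CPM, where the smaller share of Rn45s in control IgG RIP remains, the median was 0.64, and with Rn45s removed but no TMM scaling it was -0.14. Where a library has no read of a gene, its level may still be as high as 3 reads, or 0.396 to 0.820 scaled CPM in these 4 libraries, a limit that covers counting error only.

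The limma test across all genes called 337 genes higher in control IgG RIP than in Input and 203 lower at an adjusted p under 0.05, which is 2.57% and 1.55% of the genes tested, or 4.11% in all. Of these, 320 and 186 differed at least 2-fold. On the deposited CPM the same test called 4283 higher and 9 lower, so the split between directions belongs to the composition scaling. With Rn45s removed but no TMM scaling it called 149 higher and 118 lower. Leaving out 1 library lowered every count. The higher and lower calls were 16 and 4 if control IgG RIP replicate 1 was left out, and 56 and 4 if its replicate 2 was. They were 122 and 5 if Input replicate 1 was left out, and 41 and 3 if its replicate 2 was. All 337 and all 203 genes kept the sign of their ratio in those 4 fits. The 18 genes called in each of them were 12 protocadherins of the gamma cluster, Lrrtm3, Rmrp, and 4 with placeholder symbols, so every other gene named below as called lost its call without at least 1 of the 4 libraries. Both values of control IgG RIP lay above both values of Input for 29.1% of the genes tested and below them for 29.7%, and counts of genes without overlap are read against those shares.

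Short mRNAs were under-represented in control IgG RIP and long ones over-represented. Among protein-coding genes, the median log2 ratio went from -0.74 for 370 genes whose longest annotated transcript was under 1 kb, through -0.43 for 1 to 2 kb, -0.19 for 2 to 3 kb and -0.04 for 3 to 4 kb. It was 0.13 for 4 to 6 kb, 0.30 for 6 to 8 kb and 0.49 for 784 genes over 8 kb. Each control IgG RIP library gave this order by itself, with medians of -0.84 and -0.61 in the shortest class and 0.51 and 0.42 in the longest. Under 1 kb 1 gene was called higher and 30 lower, and over 8 kb 35 were called higher and 0 lower. The share called lower went down with each class, from 8.11% to 0. The share called higher did not go up at each step, at 0.27% under 1 kb, 1.13% at 1 to 2 kb, 0.78% at 2 to 3 kb and 4.46% over 8 kb. Of the 203 genes called lower, 121 (59.6%) had transcripts under 2 kb, against 19.3% of all genes tested. The rank correlation of ratio and transcript length across 12501 protein-coding genes was 0.47, given as a description because genes of 1 library are not independent.

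Genomic span gave the same order, exon number nearly so, and GC content a flatter one. Median ratios were -0.48 for protein-coding genes spanning under 5 kb and 0.50 for those over 200 kb. They were -0.23 for genes of 1 exon, -0.33 for 2 to 3 exons and 0.64 for those with over 32 exons. From the 2501 genes of lowest GC content to the 2500 of highest, the median moved from 0.06 to -0.09. Among genes of low GC content (the lowest of 3 equal groups), the medians were -0.43 under 2 kb, -0.11 for 2 to 4 kb and 0.22 over 4 kb. Those of high GC content gave -0.48, -0.10 and 0.24. Length, span and exon number move together across genes, and their separate parts were not tested. Cnot3 RIP, which was compared with the same Input libraries, gave medians of -0.84 and 0.44 in the shortest and longest transcript classes.

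**Figure D1:**
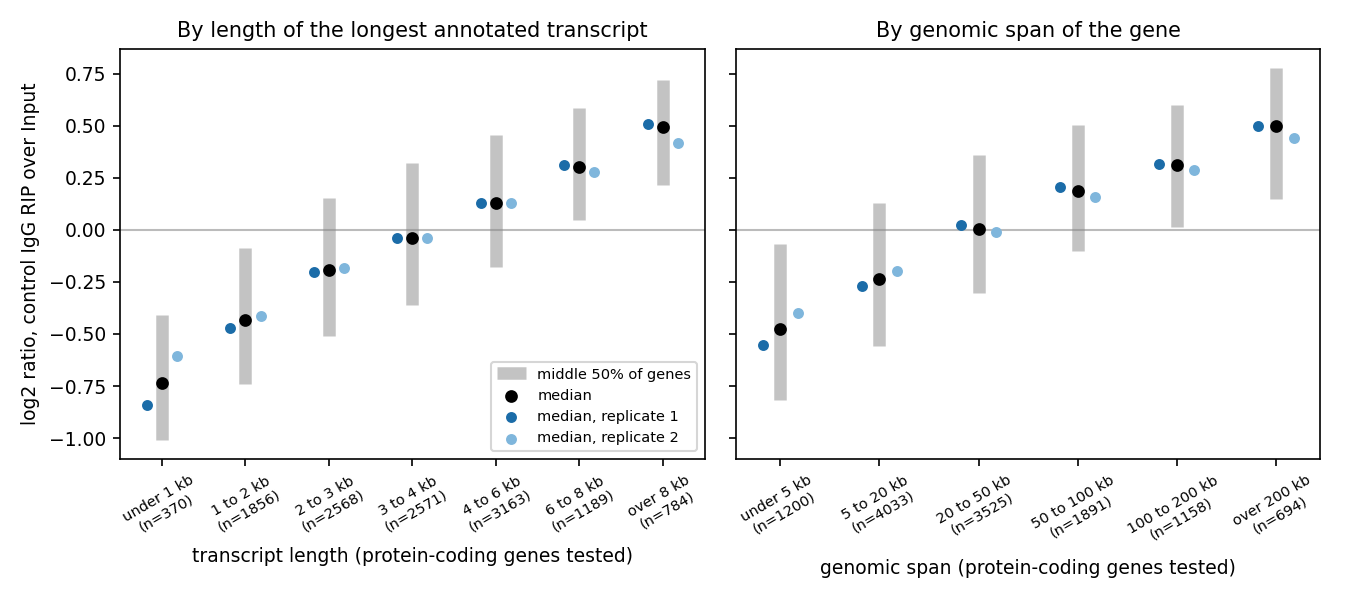
Log2 ratio of control IgG RIP over Input for protein-coding genes, grouped by the length of the longest annotated transcript (left) and by genomic span (right), with the number of genes under each class. Black points are medians, grey bars the middle 50% of genes, and coloured points the medians of each control IgG RIP library against the mean of the Input libraries; the medians go from -0.74 under 1 kb to 0.49 over 8 kb.

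The giant mRNAs of the sarcomere and cytoskeleton carried this pattern into the composition of the libraries. The list holds 40 of the longest muscle, cytoskeletal, matrix and ubiquitin-ligase mRNAs. Their median ratio was 0.70 (0.90 and 0.39 in the separate control IgG RIP libraries), and 39 of 40 had a ratio above 0. For 32 of 40 both values of control IgG RIP lay above both of Input, but the test called only 1 higher and 0 lower. Summed, they took 28.6% and 20.04% of the tested reads in control IgG RIP and 11.2% in each Input library. Ttn, which encodes titin, the molecular spring of the sarcomere, made up most of this. It stood at 284890 and 146705 scaled CPM in control IgG RIP and at 74262 and 79196 in Input. The groups did not overlap, yet with the control IgG RIP libraries far apart the log2 ratio of 1.41 ± 0.82 (SE) did not pass (limma adjusted p = 0.315). Without Ttn the other 39 still took 5.12% and 4.21% in control IgG RIP, against 3.22% and 3.18% in Input.

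Dmd, which encodes dystrophin, the link between the cytoskeleton and the muscle membrane, was the member called. It stood at 1630 and 1051 scaled CPM in control IgG RIP and at 486 and 411 in Input, 2.92-fold higher (log2 1.55 ± 0.28, limma adjusted p = 0.0247). Neb, which encodes the thin-filament ruler nebulin, stood at 125 and 53.4 against 26.8 and 36.2 scaled CPM and did not pass (limma adjusted p = 0.082). Ryr2, the calcium release channel of the sarcoplasmic reticulum, stood at 15183 and 7383 against 5752 and 6321, without overlap and without passing (limma adjusted p = 0.301). Xirp2, which encodes a protein of the intercalated disc, was the 1 member with a ratio below 0, at -0.11, which was 0.67 on the deposited CPM. Control IgG RIP replicate 1 was the higher of the pair for Ttn, Dmd, Neb and Ryr2 alike.

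Other sarcomere and Z-disc genes, most of them short, lay on the other side. Among 25 tested, 20 had ratios below 0 and the median was -0.66, against 0.12 on the deposited CPM; 17 were below Input without overlap, 3 were called lower and 1 higher. Myoz2, which encodes a calcineurin-binding Z-disc protein, fell from 686 and 914 scaled CPM in Input to 342 and 280 in control IgG RIP (log2 -1.35 ± 0.25, limma adjusted p = 0.0257). Acta1, skeletal muscle actin, and Smpx, a small muscle protein, were also called lower, at log2 ratios of -1.03 and -0.96. The myosin light chain mRNAs Myl2 and Myl3 stood at -1.15 and -1.03 without passing. Actc1, cardiac actin and one of the most abundant mRNAs, stood at 6679 and 6359 against 8670 and 9284 scaled CPM, with no overlap and no call (log2 -0.46, limma adjusted p = 0.465).

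Myh7 was the member of that list called higher. This gene, the slow heavy chain that dominates in fetal ventricles of the mouse, rose from 396 and 325 scaled CPM in Input to 1959 and 1190 in control IgG RIP, 4.25-fold (log2 2.09 ± 0.32, limma adjusted p = 0.0154). Myh6, the adult heavy chain, stood at 69179 and 32006 against 24312 and 30550 scaled CPM, and did not pass (log2 0.79, limma adjusted p = 0.461). The coding sequences of these neighbours are closely alike, so reads could be split between them. Mir208b, the precursor entry of a microRNA inside Myh7, rose 3.79-fold (85.3 and 51.4 against 20.8 and 14.0 scaled CPM, limma adjusted p = 0.023). Cnot3 RIP held Myh7 at 607 and 407 scaled CPM, lower than control IgG RIP (log2 -1.62, limma adjusted p = 0.043).

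**Figure D2:**
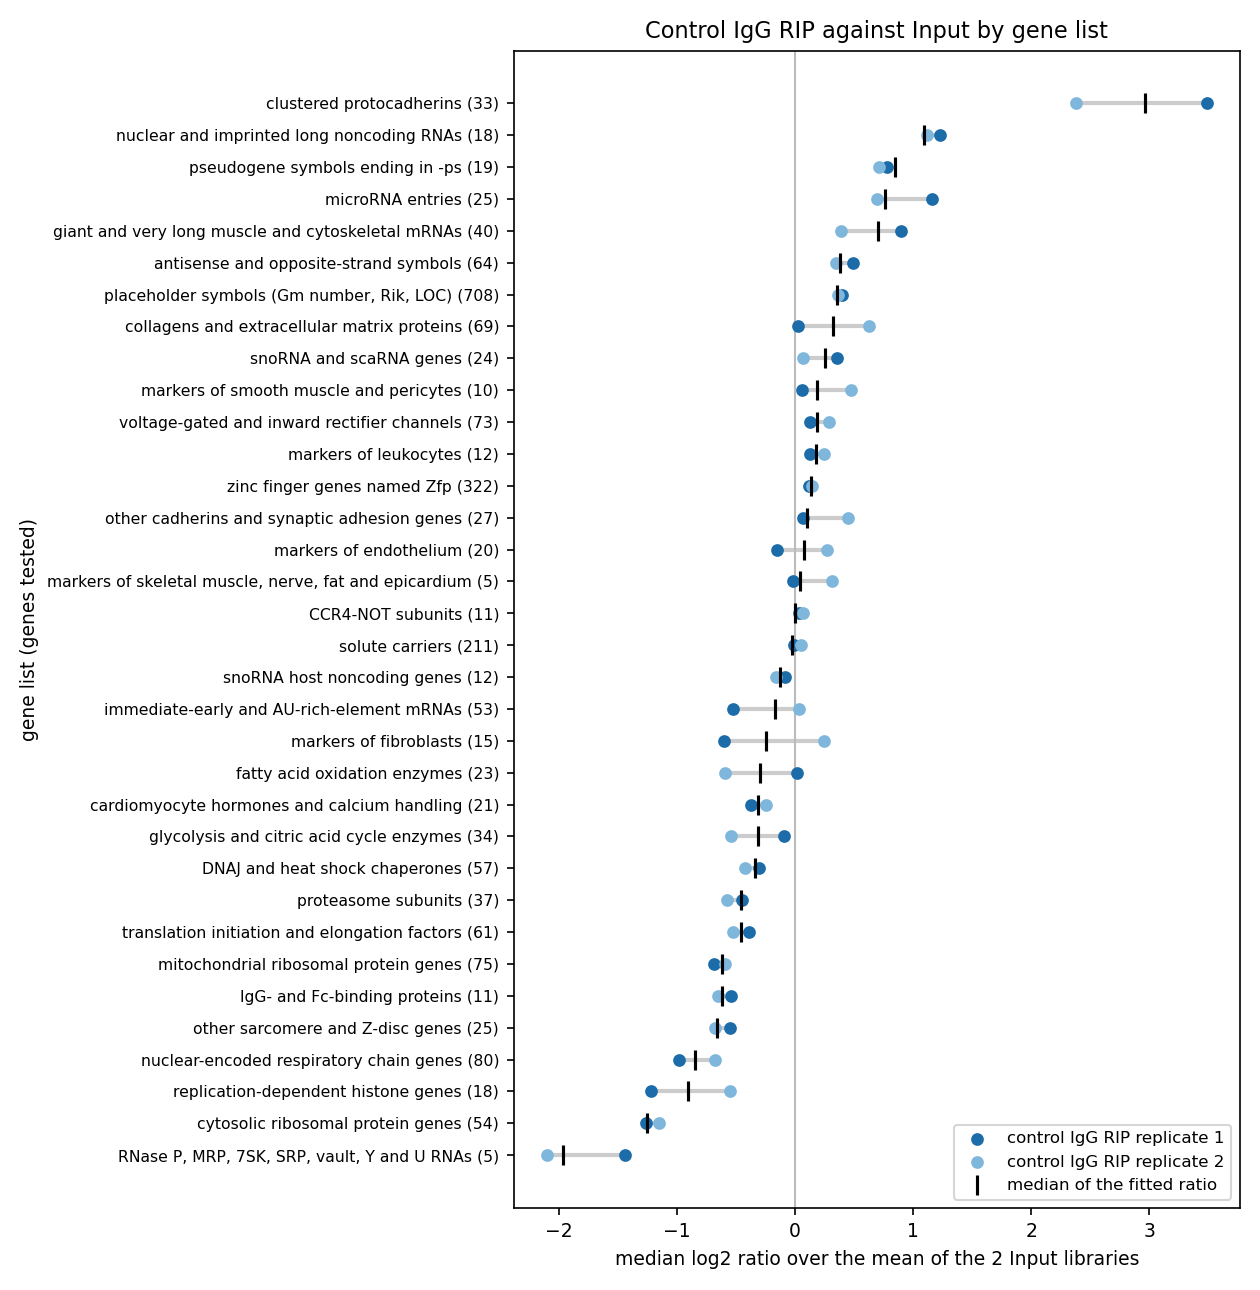
Median log2 ratio of control IgG RIP over the mean of the Input libraries for each gene list with at least 5 tested members, the number tested in brackets. Blue points are the separate control IgG RIP libraries and black ticks the median of the fitted ratio; clustered protocadherins (2.97) and nuclear long noncoding RNAs (1.09) are at the top, and cytosolic ribosomal protein genes (-1.25) and the RNase P and MRP list (-1.96) at the bottom. On the deposited CPM all medians shift upward and those of the other sarcomere list, proteasome, translation factors, chaperones, mitochondrial ribosomal proteins, Fc-binding proteins, glycolysis, fatty acid oxidation, immediate-early genes, calcium handling, solute carriers, CCR4-NOT, fibroblast markers and snoRNA hosts turn positive.

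Among long noncoding RNAs of the nucleus, 3 were called higher in control IgG RIP. Airn and Kcnq1ot1, of imprinted loci, had the largest ratios of the list, while the imprinted H19 had the lowest. In this list 17 of 18 tested genes had ratios above 0, with a median of 1.09 (1.23 and 1.12 in the separate libraries), and 14 lay above Input without overlap. Their summed share of the tested reads overlapped between groups, at 1.89% and 3.10% in control IgG RIP, against 2.18% and 1.45% in Input. Kcnq1ot1, the transcript that silences genes of its imprinted domain in cis, lies at chr7:143203458-143296549 (GRCm38) on the strand opposite to Kcnq1. It rose from 235 and 83.1 scaled CPM in Input to 1679 and 1317 in control IgG RIP, 10.6-fold (log2 3.41 ± 0.51, limma adjusted p = 0.014). Airn, which silences Igf2r from the paternal chromosome, rose 11.5-fold, from 11.8 and 4.82 to 127 and 66.7 scaled CPM (limma adjusted p = 0.00842). Its gene spans chr17:12741311-12860136. Both are known as long, mostly unspliced transcripts that stay on chromatin.

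Xist, the RNA that coats the inactive X chromosome, was called at a much lower level. It stood at 11.7 and 17.6 scaled CPM in control IgG RIP and at 3.28 and 0.284 in Input, the last below the 3-read limit (log2 3.11 ± 0.69, limma adjusted p = 0.0436). Ddx3y, a Y-linked gene, stood at 137 and 94.0 in control IgG RIP and at 122 and 111 in Input. The abundant nuclear RNAs did not follow Kcnq1ot1 and Airn closely. Malat1, the speckle-associated RNA, stood at 15958 and 24513 against 17706 and 12274 scaled CPM, with overlapping groups (log2 0.42, limma adjusted p = 0.705). Neat1, the scaffold of paraspeckles, stood at 4845 and 2474 against 2055 and 1732 without overlap, and did not pass (log2 0.88, limma adjusted p = 0.182). H19, an imprinted RNA that is spliced and cytoplasmic, was the 1 member with a ratio below 0, at -1.22 (10.7 and 33.8 against 59.0 and 34.5 scaled CPM). Cnot3 RIP had a median ratio over Input of 0.26 for this list, and no member was called in Cnot3 RIP against control IgG RIP.

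With placeholder symbols left out, the largest ratios belonged to protocadherins of the gamma cluster, cell adhesion molecules best known for neuronal self-recognition. All 33 clustered protocadherins tested had ratios above 0, with a median of 2.97 (3.49 and 2.38 in the separate libraries), and 20 were called higher. Every call was in the gamma cluster: 11 of 12 Pcdhga, 7 of 7 Pcdhgb and 2 of 3 Pcdhgc genes. The 11 Pcdhb genes tested had a median of 0.92 and 0 calls. None of the 14 Pcdha genes passed the filter. Pcdhga8 stood at 158 and 66.9 scaled CPM in control IgG RIP and at 4.10 and 4.11 in Input, 22.4-fold higher (log2 4.49 ± 0.36, limma adjusted p = 0.00263). Pcdhgb5 and Pcdhga9 followed at 16.3-fold and 15.6-fold. Pcdhgc3 stood at 76.0 and 71.6 against 45.1 and 48.9 scaled CPM, the highest level of the family in Input and the smallest ratio in the gamma cluster (log2 0.65).

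The gamma genes share their constant exons and sit in 1 array, one variable exon behind the other. Their reads could be split or counted more than once, and the 20 calls are not 20 independent observations. In all 20, control IgG RIP replicate 1 was the higher library. Cnot3 RIP held Pcdhga8 at 23.0 and 22.0 scaled CPM, which was lower than control IgG RIP (log2 -2.17, limma adjusted p = 0.0272) and higher than Input (log2 2.32, limma adjusted p = 0.0113). In the test of Cnot3 RIP against control IgG RIP, 14 of the 33 were called lower, where 0.297% of all genes were.

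Genes that lie inside other genes made up 80 of the 337 genes called higher. This grouping was chosen after the values were seen and is a description. With GENCODE M21 positions, 392 tested genes other than clustered protocadherins lay wholly within a longer tested protein-coding gene. Their median ratio was 0.81 (0.76 and 0.78 in the separate libraries), and 80 were called higher and 3 lower. The 12618 genes not inside another had a median of -0.02, with 212 called higher and 200 lower. So 25.6% of the genes called higher that could be placed lay inside another gene, against 3.01% of all genes tested and 1.48% of those called lower.

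Orientation and coding class separated these genes further. Opposite to their host and not protein coding, 112 genes had a median of 1.78, with 41 called higher and 1 lower. On the same strand and not protein coding, 24 genes had a median of 1.61 and 9 were called higher. Protein-coding genes inside another had medians of 0.21 on the opposite strand (178 genes, 26 called higher and 2 lower) and 0.13 on the same strand (53 genes, 3 and 0). The ratio also went with the level of the host, leaving out 25 small RNA genes. Inside hosts under 10 scaled CPM the median was -0.03, for hosts of 10 to 50 it was 0.82, for 50 to 250 it was 1.43, and over 250 it was 2.12 (23 genes, 11 called higher). The hosts themselves had medians of 0.02, 0.20, 0.30 and 0.20 in those classes. These levels are scaled CPM without division by length. The genes inside had median Input levels of 9.90, 2.49, 1.91 and 2.14 scaled CPM in those classes, so host level and own level were not separated. Among genes at under 5 scaled CPM themselves, the median was 1.46 inside another gene (41 of 173 called higher) and 0.13 outside (49 of 2693). At 5 to 20 scaled CPM they were 0.43 inside and -0.09 outside. Better expressed genes did not show it in their medians. These were -0.04 inside and -0.03 outside at 20 to 100 scaled CPM, and -0.33 inside (18 genes) and 0.04 outside above that. Calls were still more frequent inside at 20 to 100 scaled CPM, with 8 of 61 higher and 3 lower, against 66 of 4490 and 108 outside. Above that, 3 of 18 were called higher and 0 lower inside, against 18 of 1470 and 41 outside. Genes under 5 scaled CPM had a median level in Input of 1.03 scaled CPM inside and 2.29 outside. The filter was set on deposited CPM, which the larger share of Rn45s in Input made harder to reach there. Low genes could thus pass through the immunoprecipitates alone, which favours high ratios. The part of this in the calls and medians of genes inside others was not tested.

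**Figure D3:**
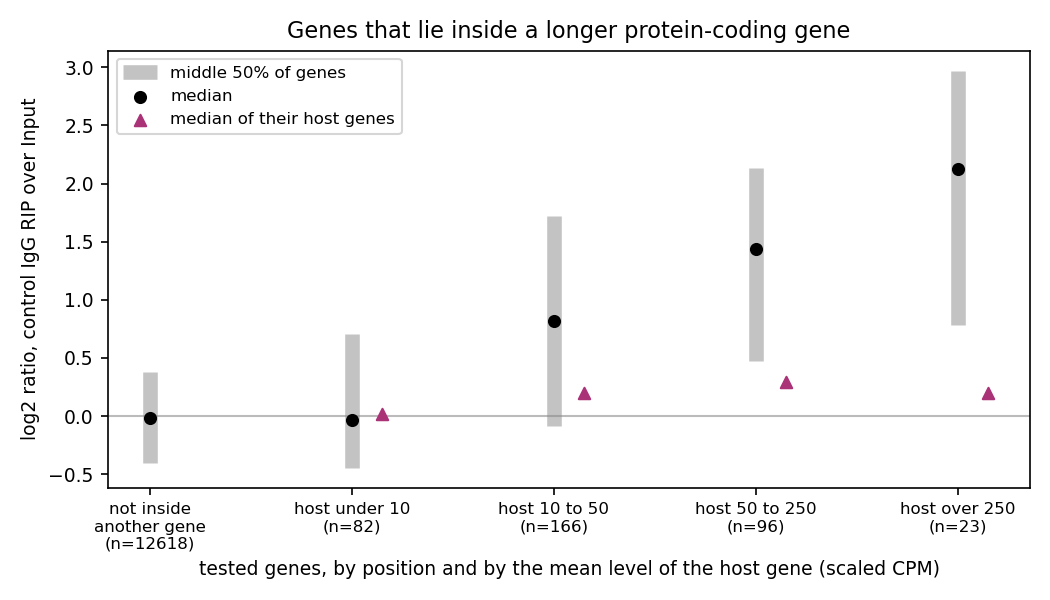
Log2 ratio of control IgG RIP over Input for tested genes outside any longer protein-coding gene and for genes inside one, the latter by the mean level of the host gene. Black points are medians, grey bars the middle 50% of genes and triangles the medians of the hosts. Nested genes go from -0.03 to 2.12 as the host level increases, while host medians lie between 0.02 and 0.30. The nested genes' own levels also differ between these classes.

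Several of the largest single changes were of this kind, and all of the following lie opposite to an expressed host. Lrrtm3, a synaptic adhesion gene at chr10:63928472-64090277 inside Ctnna3, rose from 7.38 and 6.67 scaled CPM in Input to 138 and 78.2 in control IgG RIP, 13.9-fold (log2 3.80 ± 0.30, limma adjusted p = 0.00263). Ctnna3, which encodes a catenin of the cardiac intercalated disc, itself rose only 2.31-fold (log2 1.21, limma adjusted p = 0.03). Fam196a inside Dock1 rose from 1.91 and 1.99 to 34.3 and 26.7 scaled CPM, 12.6-fold, while Dock1 had a log2 ratio of 0.81 and was not called. Lrrtm2 inside Ctnna1 and Lrrc4 inside Snd1, also synaptic adhesion genes, rose 12.6-fold and 10.5-fold. Sorbs2os and Bcas3os1, antisense to Sorbs2 and Bcas3, rose 9.26-fold and 11.99-fold, with host log2 ratios of 0.26 and 0.68 that did not pass. The strand setting of the counting is not given in the sources used here. Without it, reads of these genes and of unspliced or antisense RNA of their hosts cannot be told apart, and the part of host RNA in these ratios was not tested.

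Annotated classes of noncoding genes, which mix genes inside and outside others, differed among themselves. Of 164 tested genes annotated as antisense (of 539 in the table), 43 were called higher and 0 lower, with a median of 1.42 and 138 above 0. Among lincRNAs 11 of 114 were called higher and 1 lower (median 0.38), and among processed transcripts 15 of 113 and 0 (median 0.68). Of 16 genes annotated as lncRNAs from bidirectional promoters 0 were called, with a median of 0.12, and of 12 noncoding snoRNA hosts 0, with a median of -0.13. Symbols of the Gm, Rik and LOC forms had 94 of 708 called higher and 4 lower (median 0.36). Protein-coding genes had 227 of 12501 called higher and 198 lower. A gene of low level that passed the filter through the libraries of 1 group had to differ, so these counts describe the genes that passed and not the whole classes. For Lrrtm3, Fam196a, Bcas3os1 and Pcdhga8 the level in Cnot3 RIP lay between the other groups, at 30.2 and 22.1, 11.03 and 4.78, 5.11 and 3.77, and 23.0 and 22.0 scaled CPM.

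**Figure D4:**
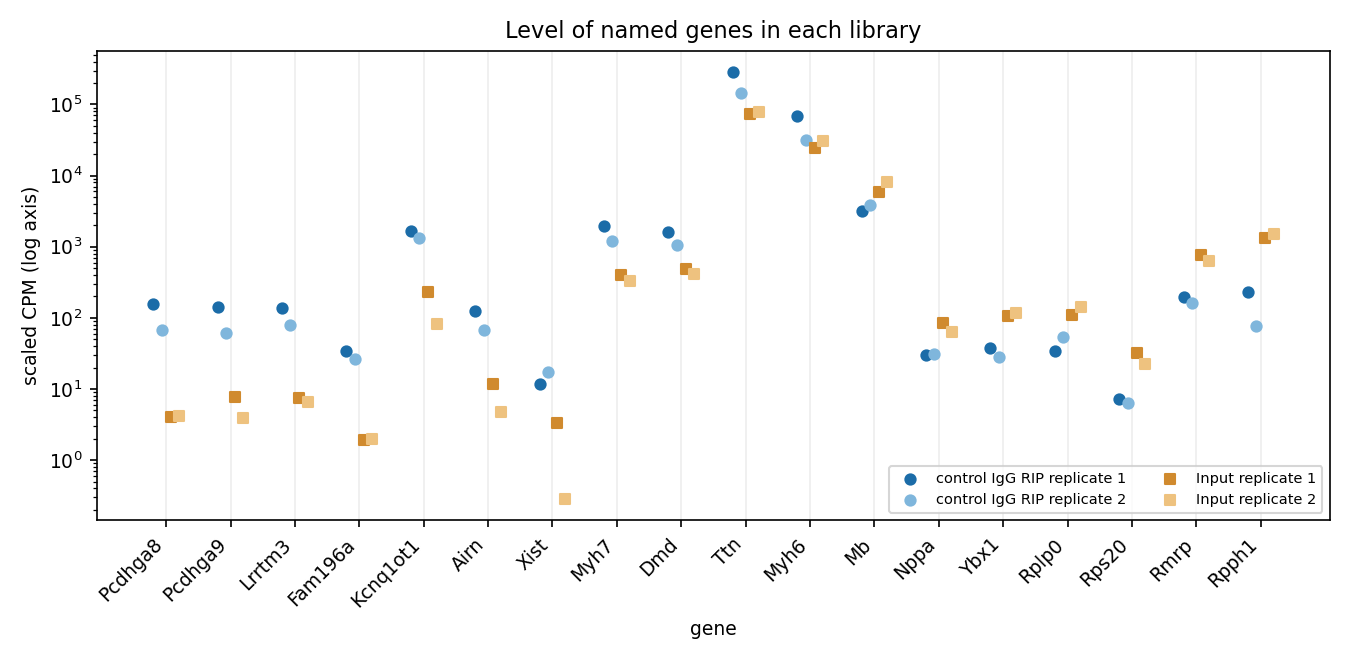
Level of 18 named genes in each library of control IgG RIP (circles) and Input (squares), in scaled CPM on a log axis. From Pcdhga8 to Myh6 both control IgG RIP points lie above both Input points, with the smallest gap for Myh6, and from Mb to Rpph1 both lie below.

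Among the lists of protein-coding genes, that of cytosolic ribosomal proteins had the lowest median. Only 54 of the 86 cytosolic ribosomal protein genes in the table passed the filter. Of these 54, 23 were called lower and 0 higher, 51 had ratios below 0, and 44 lay below Input without overlap. Their median was -1.25 (-1.26 and -1.15 in the separate libraries), and -0.46 on the deposited CPM. Summed, they took 0.0627% and 0.0851% of the tested reads in control IgG RIP, against 0.191% and 0.195% in Input. Rps20, of the small subunit, fell from 31.97 and 22.7 scaled CPM to 7.29 and 6.34 (log2 -1.91 ± 0.27, limma adjusted p = 0.0119). Rplp0, of the ribosomal stalk, fell from 111 and 143 to 34.1 and 53.3 scaled CPM (log2 -1.55 ± 0.28, limma adjusted p = 0.0247). Rps2 and Rpl23 were also called lower, at log2 ratios of -1.54 and -1.57. Many of these genes have near-identical pseudogenes, so their counts are uncertain. 3 members, Rps4l, Rpl21 and Rpl10, had ratios above 0 and none of them passed.

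Other genes of translation moved the same way where they were called. Eef1a1, the elongation factor that brings tRNA to the ribosome, fell from 131 and 136 to 50.4 and 50.2 scaled CPM (log2 -1.40 ± 0.22, limma adjusted p = 0.0165). Eef1b2, Eif3f and Eif5a were also called lower. Among 61 initiation and elongation factors 7 were called lower and 0 higher, with a median of -0.46, against 0.29 on the deposited CPM. Ybx1, which encodes an abundant mRNA-packaging protein, fell from 105 and 117 to 37.1 and 28.1 scaled CPM (log2 -1.76 ± 0.23, limma adjusted p = 0.00975). Bag1, a co-chaperone, and Igf2, an imprinted growth factor, were among the largest falls, at log2 ratios of -1.59 and -1.68. Of 57 DNAJ and heat shock genes 3 were called lower, the small heat shock genes Hspb6 and Hspb8 and the ribosome-associated Dnajc2, with a median of -0.33 (0.38 on the deposited CPM).

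The mRNAs of mitochondrial proteins lay below Input with few single calls. Among 80 nuclear-encoded respiratory chain genes, 8 were called lower and 0 higher, 71 lay below Input without overlap, and the median was -0.84. Cycs, cytochrome c, fell from 43.2 and 36.5 to 16.1 and 16.1 scaled CPM, and Atp5e, a small subunit of ATP synthase, from 175 and 210 to 70.5 and 85.6. Their log2 ratios were -1.27 and -1.30. Together the 80 genes took 1.76% and 2.07% of the tested reads in control IgG RIP, against 2.74% and 3.14% in Input. Of 75 mitochondrial ribosomal protein genes 9 were called lower and 0 higher, with a median of -0.61 (0.11 on the deposited CPM). Mrpl42 had the largest of their named changes, at log2 -1.46 ± 0.21 (limma adjusted p = 0.012). Median transcript lengths were 1135 bases for the respiratory chain genes and 1849 for the mitochondrial ribosomal protein genes. All protein-coding genes of 1 to 2 kb had a median ratio of -0.43, with 4.63% called lower. The part of transcript length in the values of these lists was not tested.

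Enzymes of fuel use differed less. Tpi1, a glycolytic enzyme, was the 1 of 34 glycolysis and citric acid cycle genes called lower (log2 -1.17, limma adjusted p = 0.0283), and the list's median of -0.31 was -0.09 and -0.54 in the separate libraries and 0.42 on the deposited CPM. Fatty acid oxidation genes had a median of -0.30, which was 0.02 and -0.59 in the separate libraries, and 0 of 23 were called. Mb, myoglobin, stood at 3193 and 3846 against 5825 and 8232 scaled CPM without passing (log2 -0.98, limma adjusted p = 0.16). Of 37 proteasome subunits 36 had ratios below 0 and 27 lay below Input without overlap, yet none was called (median -0.45, and 0.27 on the deposited CPM). Their median transcript length was 1883 bases, and all protein-coding genes of 1 to 2 kb had a median ratio of -0.43.

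Small RNAs of RNA processing enzymes were strongly depleted, and Rpph1 had the lowest ratio of all genes tested. Rpph1, the RNA of RNase P, which trims the 5′ ends of tRNAs, fell from 1308 and 1525 scaled CPM in Input to 231 and 76.3 in control IgG RIP, 10.6-fold lower (log2 -3.40 ± 0.44, limma adjusted p = 0.00867). Rmrp, the RNA of the related RNase MRP, which cuts the ribosomal RNA precursor, fell from 763 and 640 to 198 and 163 scaled CPM, 3.89-fold lower (log2 -1.96 ± 0.23, limma adjusted p = 0.00454). Vaultrc5, an RNA of the vault particle, was called too, at log2 -2.15. The minor spliceosome RNAs Rnu11 and Rnu12 stood at -0.81 and -0.60 without passing. Only 5 of 14 genes of this list passed the filter. Both RNAs are shown from the GENCODE M21 transcripts, 5′ to 3′ to show how short they are beside the mRNAs. Rpph1 lies at chr14:50807449-50807767 on the minus strand, of which the first 300 of 319 bases are given, and Rmrp at chr4:43492783-43493063 on the minus strand with 281 bases. No base is capitalised.
Rpph1: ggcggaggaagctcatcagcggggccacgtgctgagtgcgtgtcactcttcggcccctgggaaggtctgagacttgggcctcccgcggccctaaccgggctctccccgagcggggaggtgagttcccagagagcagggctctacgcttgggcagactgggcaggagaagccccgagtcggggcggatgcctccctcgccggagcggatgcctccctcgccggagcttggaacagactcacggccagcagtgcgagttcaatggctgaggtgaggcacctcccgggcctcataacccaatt
Rmrp: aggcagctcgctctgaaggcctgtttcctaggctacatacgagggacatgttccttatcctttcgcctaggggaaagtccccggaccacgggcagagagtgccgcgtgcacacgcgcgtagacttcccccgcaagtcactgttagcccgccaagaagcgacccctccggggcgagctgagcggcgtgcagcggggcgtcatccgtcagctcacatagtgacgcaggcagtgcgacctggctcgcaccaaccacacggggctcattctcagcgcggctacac
Cnot3 RIP held them at 90.01 and 129.8 and at 138 and 119 scaled CPM, with log2 differences from control IgG RIP of -0.30 and -0.48 that did not pass (limma adjusted p = 0.812 and 0.327).

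Small RNAs did not share 1 direction. Among 24 snoRNA and scaRNA genes tested, of 119 in the table, 15 had ratios above 0 and the median was 0.26. Snord118, the U8 RNA needed for ribosomal RNA processing, was the 1 called (limma adjusted p = 0.0496). It passed the filter only through the control IgG RIP libraries, so it had to differ. It stood at 1.70 and 1.98 scaled CPM in control IgG RIP and had 0 reads in both Input libraries, at least 2.95-fold higher over a floor of 3 reads per library. Snord22 stood at 30.02 and 12.8 against 58.8 and 35.3 scaled CPM and did not pass. MicroRNA entries had 3 of 25 called higher and 1 lower, with a median of 0.77. Which RNA the reads of these entries came from was not tested. Besides Mir208b, Mir30c-2 and Mir99ahg were called higher, the former having also passed the filter only through control IgG RIP, and Mir6516 was called lower (log2 -1.61). Mir6236 was the most abundant of them, at 19002 and 20347 against 38002 and 38698 scaled CPM, with no overlap and no call (limma adjusted p = 0.239). In Cnot3 RIP it stood at 12609 and 10444 scaled CPM. Its level thus fell from Input through control IgG RIP to Cnot3 RIP, the order in which the share of Rn45s fell. This order was not particular to Mir6236. Lars2, among the most abundant genes of Input, stood at 75070 and 64993 scaled CPM there. It stood at 35401 and 34310 in control IgG RIP, without a call (limma adjusted p = 0.293), and at 22299 and 18567 in Cnot3 RIP. Whether Mir6236 holds reads of ribosomal RNA was not tested.

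Replication-dependent histone mRNAs, which end in a conserved stem-loop in place of a poly(A) tail, lay below Input. All 18 tested had ratios below 0, with a median of -0.90 (-1.21 and -0.55 in the separate libraries), 12 without overlap, and none was called. Only 18 of 67 passed the filter. The 16-base stem-loop pattern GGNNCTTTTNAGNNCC was found on the sense strand of the annotated transcripts of 13 of the 18, and of 25 of 13017 other tested genes (0.192%). Its reverse complement was found in 15 tested genes. No other motif was searched. The sites of 4 members are shown for the variation of the loop, with the pattern in capitals.
Hist1h3f: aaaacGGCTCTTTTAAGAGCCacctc
Hist1h4c: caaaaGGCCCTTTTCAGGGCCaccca
Hist2h4: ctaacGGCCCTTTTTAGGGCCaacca
Hist3h2a: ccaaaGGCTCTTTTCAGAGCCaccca
Hist1h3f stood at 0.339 and 0.264 scaled CPM in control IgG RIP, both under the 3-read limit, and at 4.37 and 2.98 in Input (log2 -2.36, limma adjusted p = 0.0558). Hist3h2a stood at 2.205 and 2.38 against 6.56 and 6.81 (log2 -1.36, limma adjusted p = 0.0521). Genes with the pattern had a median of -0.90, as did the 5 without it. A match describes the annotated sequence and not the ends of the RNA in these samples.

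Genes of excitation and calcium handling held calls in both directions. Cacna1c, the pore of the cardiac L-type calcium channel, rose from 576 and 559 to 1297 and 1102 scaled CPM (log2 1.08 ± 0.24, limma adjusted p = 0.0447). Itpr1 and Itpr2, the inositol trisphosphate receptors, rose 2.23-fold and 2.44-fold. Their longest transcripts are 13162, 9870 and 11679 bases. Nppa, the atrial natriuretic peptide mRNA of 865 bases, fell from 85.3 and 63.6 to 29.7 and 31.3 scaled CPM (log2 -1.26 ± 0.25, limma adjusted p = 0.0303). Pln, the inhibitor of the calcium pump, stood at 3525 and 3620 against 6154 and 6497, and Atp2a2, the pump itself, at 19920 and 15917 against 14383 and 17641, neither passing. The list of 21 had 3 called higher and 1 lower, with a median of -0.31 (0.46 on the deposited CPM).

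Large gene families were called higher about as often as the 2.57% of all genes. Of 211 solute carriers 5 were called higher (2.37%) and 2 lower (median -0.03). Slc5a3, the inositol transporter, rose from 25.1 and 19.01 to 64.1 and 49.0 scaled CPM (limma adjusted p = 0.0251). It lies within Mrps6 on the same strand. Slc25a39 fell (log2 -1.15, limma adjusted p = 0.0382). Among 322 zinc finger genes named Zfp 9 were called higher (2.80%) and 2 lower, with a median of 0.14 that was 0.00 without TMM scaling. Zfp950, Zfp945 and Zfp607 rose 4.04-fold, 3.33-fold and 3.19-fold. In the list of 73 voltage-gated and inward rectifier channels 2 were called higher (2.74%), Cacna1c and Kcnk7, and 0 lower. Kcnk7 is a potassium channel gene of neither kind that the list also holds. It stood at 4.75 and 4.49 against 1.09 and 0.426 scaled CPM. It would not have passed the filter without the control IgG RIP libraries, which favoured its call.

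Extracellular matrix and cell type markers showed which differences followed 1 library. In bulk RNA, fewer cells of a type and less RNA per cell cannot be told apart. A ratio of control IgG RIP to Input also carries how well each RNA was recovered, so it does not measure cell content. Among 69 collagen and matrix genes 1 was called higher and 0 lower, and the median of 0.33 was 0.03 in control IgG RIP replicate 1 and 0.63 in replicate 2. Eln, elastin, stood at 53.4 and 198 against 182 and 60.2 scaled CPM, with a spread inside each group as wide as any difference between them. The member called was Col10a1, which lies inside Nt5dc1 on the opposite strand and stood at 14.4 and 10.6 against 2.73 and 1.42. Lama2, the laminin chain of muscle basement membrane, stood at 734 and 661 against 355 and 362 without passing (limma adjusted p = 0.0685).

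No marker of endothelium (20 tested), fibroblasts (15), pericytes with smooth muscle (10), erythroid cells with platelets (4), leukocytes (12), or epicardium, fat, nerve and skeletal muscle (5) was called in either direction. Fibroblast markers had medians of -0.60 and 0.25 in the separate control IgG RIP libraries, and endothelial markers -0.15 and 0.27. Summed fibroblast markers took 0.240% and 0.421% of the tested reads in control IgG RIP, against 0.380% and 0.336% in Input, so the control libraries lay on both sides of Input. Their part in the matrix values was not tested. Myh6, Actc1, Tnnt2 and Pln, which mark cardiomyocytes, were among the abundant genes of every library. Their ratios differed. Actc1 and Pln lay below Input without overlap (log2 -0.46 and -0.82) and Myh6 above it (log2 0.79), none of them passing. Among other cardiomyocyte markers Nppa, at 29.7 and 31.3 against 85.3 and 63.6 scaled CPM, was called lower (limma adjusted p = 0.0303). Myl2 and Myl3 had ratios below 0 without passing. Genes for proteins that bind antibody, such as Fc receptors and C1q, had ratios below 0 in 11 of 11 tested genes (median -0.62, against 0.10 on the deposited CPM) and 0 were called. Their median transcript length was 1374 bases, and all protein-coding genes of 1 to 2 kb had a median ratio of -0.43.

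Cnot3 itself stood at 20.2 and 17.6 scaled CPM in control IgG RIP and at 16.4 and 17.03 in Input, with a log2 ratio of 0.17 that did not pass (limma adjusted p = 0.731). The 11 CCR4-NOT subunit genes had a median of -0.00 and 0 calls. Immediate-early and AU-rich-element mRNAs, short-lived messages of stress and growth signals, had a median of -0.16 and 0 of 53 were called in control IgG RIP against Input. Zfp36l1, which encodes an AU-rich-element binding protein, stood at 31.2 and 55.8 scaled CPM in control IgG RIP, 68.6 and 57.2 in Input and 199 and 279 in Cnot3 RIP. The test of Cnot3 RIP against control IgG RIP called it higher (log2 2.48, limma adjusted p = 0.0123), along with 25 other members of the list. Over all genes that test called 187 higher (1.42%) and 39 lower (0.297%).

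Few genes were called between Cnot3 RIP and control IgG RIP, 1.42% higher and 0.297% lower over all genes tested. The 0 calls in the lists below, of 5 to 80 genes, are near those shares and set none of these lists apart. The RNase P and MRP list had a median ratio over Input of -1.96 with the control antibody and -2.44 with the Cnot3 antibody. Of its 5 tested genes, 0 were called between the immunoprecipitates. Cytosolic ribosomal protein genes had a median ratio over Input of -1.25 with the control antibody and -0.98 with the Cnot3 antibody, and 0 of 54 were called between the immunoprecipitates, with a median difference of 0.14. For respiratory chain genes the medians were -0.84 and -0.99, and 0 of 80 were called between them. Giant mRNAs had medians of 0.70 and 0.40, and 0 of 40 were called. Both comparisons share the Input libraries, so values in them move together for that reason alone. A test that did not pass does not show that the immunoprecipitates held equal amounts.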

How the data were processed

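RNA was measured in 6 libraries, and the values used were the authors' deposited table of CPM per gene symbol. The submitters' processing notes name edgeR, TopHat2 2.1.0, Bowtie2 2.2.5, FastQC and CASAVA 1.8, and mm10 as the genome. Not given in the sources used here are the counter, annotation, kit and strand setting. Every deposited CPM value was a whole number of reads within 0.01 read (100% of values), which gave totals of 15713318 to 33479580 reads for control IgG RIP and Input. Genes with at least 0.5 CPM in 2 libraries were kept and Rn45s was set aside. TMM factors were computed by edgeR 4.0.16 on those reads. The fit used limma 3.58.1 in R 4.3.3, with a trended empirical Bayes step, on log2 values with a pseudocount of 0.5 scaled CPM, over all 6 libraries with 3 group means and no block, with Benjamini-Hochberg adjustment over 13129 genes. Ratios understate the changes of low genes. edgeR's quasi-likelihood test and DESeq2 1.42.0 on the recovered reads were alternatives, beside other scalings, pseudocounts and filters, a replicate block, the 4 libraries alone and leaving out each library. The fit was tested on simulated data.

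Positions, biotypes and the longest transcript came from GENCODE M21 (GRCm38, the assembly of mm10), with 23336 symbols matched directly, 48 matched to several genes, 667 through a synonym in RefSeq (GRCm38.p6) and 370 unmatched. The members and lists were chosen with earlier results of these data known. Lists are described by counts and medians, with no test of a list. Named genes were the 12 largest changes in each direction among called genes without overlap and with a mean of at least 10 scaled CPM, leaving out placeholder symbols (such as Gm, Rik and LOC forms), up to 4 members of smallest p in each list, the 10 most abundant genes of each group and a few fixed genes. Others, such as H19, Xirp2, Eln and Pcdhgc3, the host genes, Lrrc4 and Ddx3y, were chosen after their values were seen.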

Additional observations from a re-analysis of the deposited data

How the results depend on the processing

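The counts of genes higher and lower in control IgG RIP changed by over 1.5 times in these cases. They were 4283 and 9 on the deposited CPM, 149 and 118 with Rn45s removed but no TMM scaling, and 534 and 439 with only the 4 libraries in the fit. A filter of 5 CPM in 2 libraries gave 172 higher of 8130 tested, where fewer genes were tested. Leaving out each library in turn gave 16 to 122 higher and 3 to 5 lower, from fewer samples. The replicate block gave 254 higher and 83 lower. The deviations of replicate 1 from the group mean correlated at -0.31 between control IgG RIP and Input and at -0.31 between control IgG RIP and Cnot3 RIP. Between Cnot3 RIP and Input they correlated at 0.34. With 2 libraries in a group these values cannot show whether replicate numbers pair the libraries, and the labels do not say. The crossed replicate block, chosen after seeing the data, called 1126 and 942. edgeR's quasi-likelihood test on the recovered reads called 225 and 148, all of them among the 337 and 203, and DESeq2 437 and 267, with 318 and 192 shared. Input replicate 1 was the shallowest library, with 3407528 reads other than Rn45s, and the effect of depth on the calls was not tested.

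The medians of 8 lists were followed through all alternatives. That of the other sarcomere genes reversed to 0.12 on the deposited CPM and was -0.80 without TMM scaling. Beyond those 8, medians that turned positive on the deposited CPM included 0.27 for the proteasome, 0.29 for translation factors and 0.11 for mitochondrial ribosomal proteins. On the deposited CPM the other medians moved to 1.47 for giant mRNAs, -0.46 for cytosolic ribosomal proteins, -0.069 for the respiratory chain, 1.04 for matrix genes, -1.18 for the RNase P and MRP list and 1.59 for nuclear long noncoding RNAs. Xirp2 had a ratio of 0.67 there. That setting keeps the Rn45s difference. Leaving out each library gave -1.26 to -1.15 for cytosolic ribosomal proteins and -2.10 to -1.44 for the RNase P and MRP list. The cytosolic ribosomal protein median was -1.39 without TMM scaling, -0.98 with a pseudocount of 2 and -1.36 at the 5 CPM filter. The cause was not tested for the filter and pseudocount.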
